A study of Bos taurus with 18 samples.

Results

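The positions described here are the CpG positions at which the methylation level differed most between 18 bulls. A position was taken when it lay on chromosomes 1 to 29, was listed in at least 12 of the 18 bulls, and had a standard deviation (SD, n - 1) of its methylation level between bulls of at least 30 percentage points. Of 39985997 autosomal positions listed in any bull, 1870522 were listed in at least 12 bulls, and 27523 of these (1.47%) met the threshold. They are called variable positions below, and the 1870522 are called eligible positions. The variable positions were thus chosen by the methylation levels themselves, and their spread between these bulls is described without a test.

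Sperm of 18 fertile, age-matched Holstein bulls was studied by whole-genome bisulfite sequencing, with 1 library per bull. The labels put bulls in high or low groups of 5 traits, which for the first 4 named here were set by predicted transmitting ability, the genetic merit passed on to progeny, and several bulls serve in more than 1 comparison. For gestation length (GL), H03, H09, L03 and L05 were high and H02, H05, L01 and L07 were low. The high and low bulls were H03, H07, L02 and H01, H06, L09 for sire calving ease (SCE), H02, L03, L08 and H05, H09, L02 for body depth (BDE), H08, H09, L06 and H06, L08, L09 for cow conception rate (CCR), and H01, H02, H03 and L01, L02, L03 for the trait the labels call SCR. The letters H and L in these names do not give the group of the first 4 traits, and H04 and L04 have no group in the labels. No bull carried a treatment or an engineered allele.

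Bisulfite turns unmethylated cytosine into uracil, which is read as thymine, while methylated cytosine is still read as cytosine. The methylation level of a position is the percent of its reads that keep the cytosine. A genetic C-to-T variant is read in the same way as an unmethylated cytosine, so that a bull with the variant on both chromosomes would be listed near 0, a bull with it on 1 chromosome near 50, and a bull without it at the level of the surrounding DNA. Most CpGs of mammalian sperm DNA are highly methylated, with low levels mainly in CpG-rich promoters. A methylation difference that spans a region would move neighbouring CpGs together. A variant of 1 base changes the CpG that holds it, and nearby variants inherited together can change several CpGs at once. No genotypes were used here, and which variable positions hold a variant was not tested.

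The bulls listed between 2858992 (H01) and 22048556 (H08) positions, each covered by at least 10 reads. Coverage was listed for H01, H02, H03, L01, L02 and L03 only, with a median of 11 reads per position in 5 of them and 12 in L01, and the depth is unknown for the other 12 bulls. H05 and L02 stood apart as a pair that was alike at the variable positions, as described below. The 6 bulls with listed coverage and the other 12 did not overlap at 41 of the 17932 variable positions that allowed this comparison (0.229%), where 0.0756% of all 1329409 such positions did not overlap. No reference genome of the build of these files, UMD 3.1, was used, so no sequence is given.

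By the rule that chose them, the variable positions spread more between bulls than the bulk of the eligible positions. Their SD had a median of 34.2 points and a maximum of 50.1, whereas the median of the eligible positions was 5.96 points and the 90th percentile 14.1. The median of the mean level was 57.0% at the variable positions and 93.7% at the eligible positions. A wide spread also keeps a mean away from 0 and 100%. Of the variable positions, 112 were listed in all 18 bulls and 11611 in exactly 12, and the matching counts of eligible positions are not given here. The last positions inside the threshold were position 61725237 of chromosome 10, with levels from 0 to 80% (median 3.57, 12 bulls), position 72242599 of chromosome 9, from 0 to 90.9% (median 27.3, 13 bulls), and position 49293630 of chromosome 17, from 15.4 to 100% (median 80.5, 14 bulls). The first outside were position 43127360 of chromosome 3, from 0 to 100% (median 50, 13 bulls), position 28325745 of chromosome 22, from 0 to 100% (median 83.3, 13 bulls), and position 80921284 of chromosome 16, from 10 to 100% (median 74.1, 12 bulls).

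The levels at the variable positions gathered near 0, near 50 and near 100. Of their 360714 listed values, 22% lay within 10 points of 0, 21.9% within 10 points of 50, and 32.6% within 10 points of 100. The band at 50 reaches to both sides and the end bands to 1 side only. The stretches between the groups held fewer values, with 3.25% of values between 20 and 30 and 3.1% between 70 and 80. They were not empty, as the histogram of levels shows, with 3.32% between 30 and 35 and 3.72% between 35 and 40. At the eligible positions the corresponding shares near 0, 50 and 100 were 13.4%, 4.63% and 57.4%, so that the sum of the 3 bands was close in both sets (76.4% and 75.4%) and the middle band was where they differed most in proportion. The rule favours values far from each other, so these shares are a description.

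**Figure D1:**
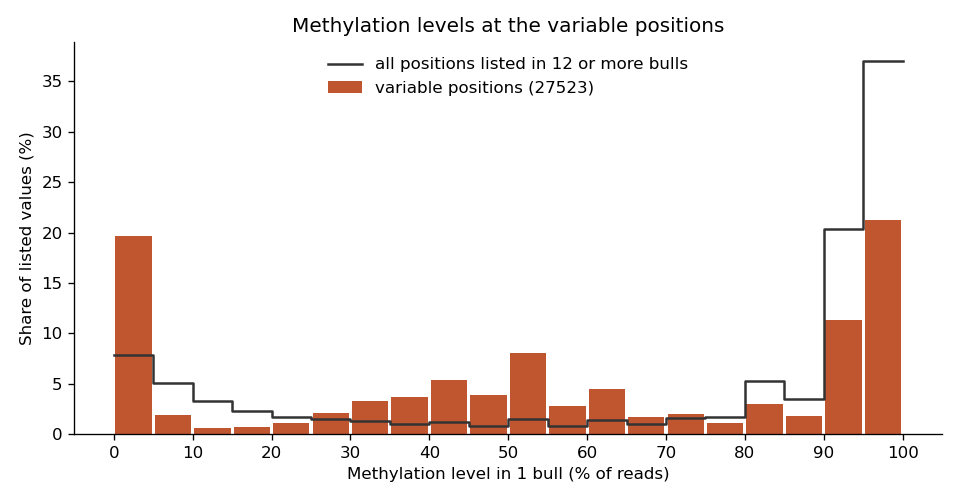
Share of listed values (percent, y axis) in steps of 5 points of methylation level in 1 bull (percent of reads, x axis), for the 27523 variable positions (bars) and all 1870522 positions listed in 12 or more bulls (line). The bars form 3 groups, with 19.7% of values in the lowest step, a broad group around 50 and 21.3% in the highest step, while the line has no group in the middle.

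Nearly every variable position had bulls in all 3 groups. With a low level defined as at most 25%, a high level as at least 75% and a middle level between them, 27191 variable positions (98.8%) had low, middle and high bulls. Only 115 had low and high bulls with none in the middle, 156 had middle and high bulls only, and 61 had low and middle bulls only. The median variable position had 3 low, 5 middle and 5 high bulls. At the 24722 variable positions with at least 3 middle bulls, the mean of those bulls had a median of 48.7% and lay between 41.8 and 55.7% at the 10th and 90th percentiles. In the bulls with listed coverage the 40804 middle values had a mean of 48.7% and an SD of 11.9 points, at a mean coverage of 13 reads. The middle class is centred on 50, which limits how far these means can lie from it.

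The low values were mostly exactly 0. Of the values of 0 to 10% at the variable positions, 89.0% were exactly 0, against 37.7% at the other eligible positions. The other eligible positions had higher coverage, at which an exact 0 is less likely, so the shares were also taken at equal coverage, a comparison chosen after seeing the data. At exactly 10 reads they were 90.5% of 5088 values and 65.0% of 77900, at 12 reads 90.9% of 3978 and 63.0% of 66974, and at 15 reads 89.4% of 1858 and 58.1% of 45635, a smaller contrast in the same direction. At the upper end, 63.1% of values of 90 to 100% were exactly 100 at the variable positions and 62.1% at the others. These shares were not taken at equal coverage, so they do not show whether a contrast exists there.

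The 3 groups of levels were present in each bull. The share of a bull's values in the 3 bands ranged from 73.4% in L06 to 78.1% in H08, with a median of 76.7%. The share near 0 ranged from 20.1% (H09) to 25.2% (L01), the share near 50 from 20.5% (L07) to 24.1% (H09), and the share near 100 from 28.3% (L06) to 34.7% (L05). The mean level at variable positions lay between 52.7% (L06) and 57.0% (L05), below the mean at the other eligible positions in the same bull, which lay between 64.1% (H01) and 76.8% (H08). Coverage did not differ much between the 3 bands, with medians over the 6 bulls of 12.8, 13 and 12.9 reads at values near 0, 50 and 100.

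Variable positions had lower coverage than the other eligible positions. The mean coverage was between 11.6 (H01) and 13.9 reads (L01) at the variable positions and between 15.4 (H01) and 18.5 reads (L03) at the others, and the difference of -4.58 ± 0.866 reads (SD, n = 6) had the same sign in 6 of 6 bulls. Without positions of mean coverage above 30 reads the difference was -1.18 reads, again lower in 6 of 6 bulls. The number of variable positions per 1000 eligible positions was 18.6 at a mean coverage up to 12 reads, 14.9 between 14 and 17 reads, 1.97 between 17 and 30 reads and 0.0961 above 30 reads. Only 14 of the 145647 eligible positions above 30 reads varied this much. At low coverage read sampling widens the spread between bulls by which the positions were chosen, so these values are given without a test, and its part in the count was not tested.

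A bull also listed somewhat fewer of the variable positions than of the other eligible positions. H01 listed 33.1% of the variable positions and 40.3% of the others, the lowest shares of any bull, and H08 listed 96.1% and 93.2%, the highest. The difference of -3.41 ± 2.83 points (SD, n = 18) was negative in 16 of 18 bulls. Among eligible positions listed in 12 to 17 bulls it was -1.94 points and negative in 15 of 18 bulls. The rule itself uses the listing, so these values are given without a test.

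The cytosine on the opposite strand of a CpG is listed separately and was not used to choose a position, although 92 CpGs had both strands among the variable positions, which left 27431 distinct CpGs. The opposite strand had nearly the same level as the variable position in the same bull. Over 64863 values of 19634 variable positions, the median difference in size between strands was 6.67 points, and 86.2% of the values differed by at most 20 points. Where the variable position was near 0, 50 and 100, the opposite strand had medians of 0, 50 and 100%. The 10th and 90th percentiles were 0 and 7.69% for positions near 0, 30 and 70% for positions near 50, and 85 and 100% for positions near 100. Among 2385 variable positions whose SD was at least 30 points over at least 6 bulls with both strands listed, the opposite strand also had an SD of at least 30 points in 2102 (88.1%) and an SD under 10 points in 2.

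An isolated CpG listed on both strands in all bulls fell into 2 groups of bulls. Isolated means here that no other variable position lay within 10000 bp, which held for 14108 variable positions (51.3%). The CpG at positions 5420869 and 5420870 of chromosome 11 was the only isolated CpG whose strands were both variable and listed in all 18 bulls. Its first strand was at 1.72% in H05 and 1.54% in L05, levels that need many more reads than most variable positions had. This CpG is thus not typical of the variable positions in depth. On its first strand 11 bulls lay between 0 and 2.56% and H01, H02, H08, L02, L07, L08 and L09 lay between 58.0 and 77.6%, with a median of 1.63% over all bulls. On the second strand the same 11 bulls were at 0 and the other 7 lay between 38.8 (L07) and 93.0% (H08). On neither strand did a bull lie between the low and the high group, and of the upper values 1 on the first strand and 2 on the second were within 10 points of 50, and 0 and 1 within 10 points of 100. The 28 other positions listed within 200 bp had a mean between 93.5 and 99.0% in every bull.

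Of single isolated variable positions, 43 were listed in all 18 bulls. The 8 with the largest SD, a list drawn up after the values were seen and by the value the rule used, all ranged from 0 to 100%. At position 33002806 of chromosome 9 (SD 42.9 points, median 67.5%), H02, H03, H04, H06 and L03 were at 0, H08, L09, L01 and H01 lay between 28.6 and 53.8%, and the other 9 bulls lay between 81.3 and 100%. The surrounding DNA did not follow these groups, since the 6 other positions listed within 200 bp had a mean between 89.3 and 100% in all 18 bulls. At position 16069378 of chromosome 13 (SD 37.6 points, median 46.3%), 5 bulls were at 0, 5 lay between 40 and 60%, and 5 were at 90% or more, while its 4 neighbours had means between 92.9 and 100%. Position 1946090 of chromosome 18 (SD 38.5 points, median 52.8%) had H01, H03 and L03 at 0, 7 bulls between 25 and 55.6% and 8 bulls between 90 and 100%, beside neighbours between 85.8 and 100%.

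The number of bulls in each group differed from position to position. At position 107126983 of chromosome 8 (SD 37.0 points, median 0), 10 bulls were at 0 and 2 at 90% or more. The neighbours of this position had a median over bulls of 88.2%, and in 1 bull they fell under 75%. Position 73224871 of chromosome 14 (SD 41.4 points, median 46.3%) had 6 bulls at 10% or less, 4 between 40 and 60% and 6 at 90% or more. It was the position of the 8 whose neighbours varied most, from 0 to 100% with 4 bulls under 75%. At the other 3, on chromosomes 16, 1 and 3, the SD lay between 37.0 and 37.7 points, and the neighbours had medians between 93.0 and 98.1%.

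**Figure D2:**
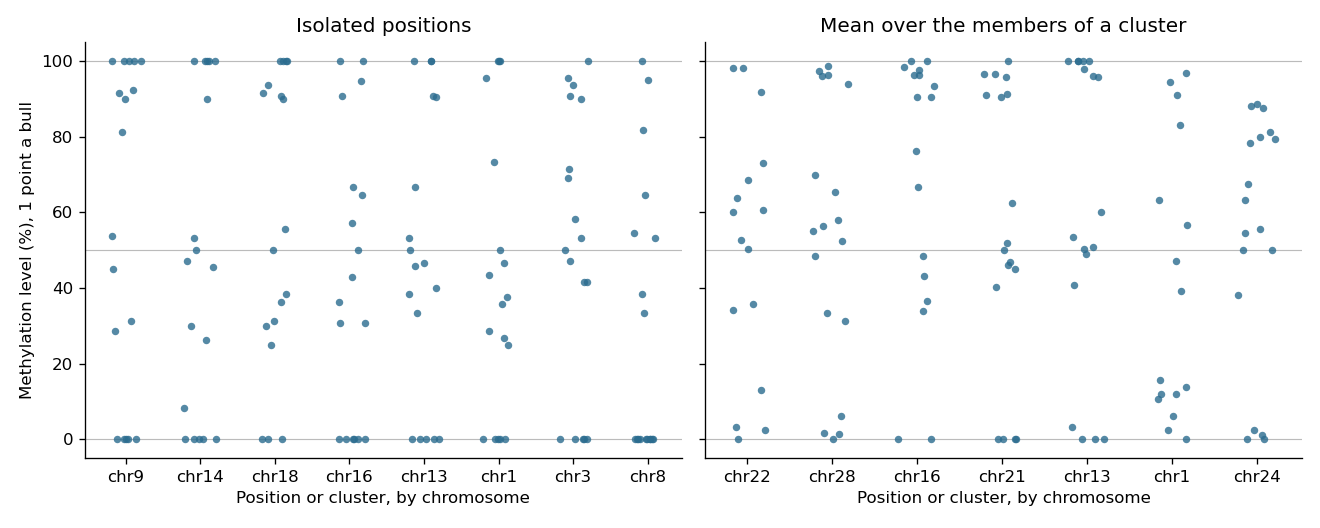
Methylation level (percent, y axis) of each bull (1 point a bull) at the 8 isolated variable positions with the largest SD (left) and as the mean over the members of the 7 named clusters without a negative Pearson correlation between members (right). The x axis names the chromosome, and the order is by falling SD on the left and by falling number of CpGs on the right. Points at the isolated positions lie at 0, at 100 and between, with a middle that is not equally tight at each. The position on chromosome 13 had 5, 5 and 5 bulls within 10 points of 0, 50 and 100. The position on chromosome 18 had 5 bulls between 10 and 40% and 2 within 10 points of 50. The horizontal lines mark 0, 50 and 100%.

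Around most variable positions the neighbouring CpGs did not move with them. For 24204 variable positions with low and high bulls and other positions listed within 200 bp, the mean of the neighbours was taken over bulls at 90 to 100% and over bulls at 0 to 10% at the variable position. The neighbours had a median of 95.3% in the first bulls and 94.0% in the second, a median difference of 1.18 points. The difference was under 10 points in size at 18334 positions (75.7%), at least 30 points at 1647 (6.80%), and -30 points or less at 144. When neighbours that were variable positions themselves were left out, 81.8% were under 10 points and 4.08% at 30 points or more. Over distance, neighbours at 2 to 25 bp had a mean of 87.7% in bulls near 0 and 94.2% in bulls near 100, and neighbours at 501 to 1000 bp had 87.4% and 91.2%.

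**Figure D3:**
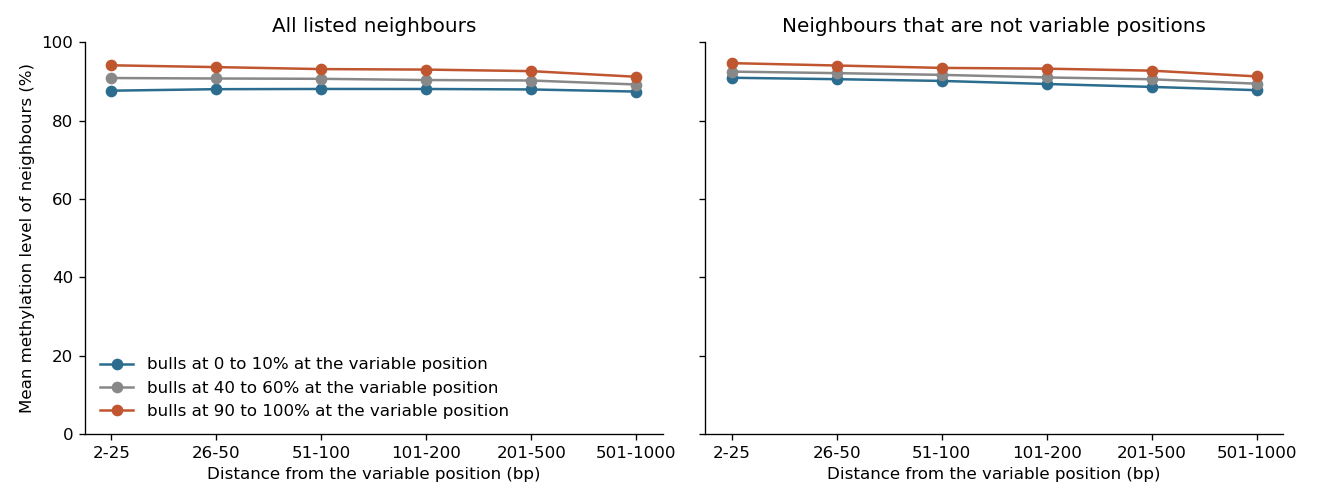
Mean methylation level of neighbouring positions (percent, y axis) by distance from the variable position (bp, x axis), in bulls whose own level at the variable position was 0 to 10, 40 to 60 or 90 to 100%, for all neighbours (left) and for neighbours that were not variable positions (right). At 2 to 25 bp the lines stand at 87.7, 90.9 and 94.2% on the left and at 91.0, 92.5 and 94.7% on the right, close to each other although the bulls span the whole scale at the variable position.

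At the 1647 positions whose neighbours moved with them by 30 points or more, other variable positions were near more often than at the 18334 with still neighbours, and the levels at the positions themselves were similar. Their neighbours had a median of 95.4% in the high bulls and 48.5% in the low bulls, and 56.5% of them had another variable position within 1000 bp, against 10.2% of those with still neighbours. Some of these nearby variable positions are the neighbours themselves. Of their own values 22.5%, 22.4% and 31.1% lay near 0, 50 and 100, where those with still neighbours had 22.1%, 22.1% and 33.3%. The share of exact zeros among values of 0 to 10% was 88.6% and 88.9%. Both kinds had a median coverage of 12.8 reads.

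A variable neighbour was found more often around variable positions than around the other eligible positions. Another variable position, other than the opposite strand of the same CpG, lay within 1000 bp of 4690 variable positions (17%) and of 5.72% of the other eligible positions. Within 100 bp the shares were 7.28% and 1.97%, and within 10000 bp 48.7% and 24.9%. These sets of positions were not matched for coverage or for the number of positions listed nearby. Variable positions were rarer where either was high, and the part of this in the contrast was not tested. The median gap between neighbouring variable positions was 26794 bp. Runs of variable positions with gaps of at most 1000 bp gave 24905 groups, of which 22758 held 1 CpG, 1835 held 2, 266 held 3, and 12 held 5 or more. Most variable positions (83.0%) were thus alone among the variable positions at this scale. Only eligible positions could count as neighbours. Another eligible position lay within 1000 bp of 88.7% of the variable positions and within 100 bp of 64.9%. CpGs listed in fewer bulls could not be judged.

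In the 312 runs with at least 3 CpGs, called clusters here, the members usually rose and fell together. Every pair of members had a positive Pearson correlation over bulls in 225 of them, and every eligible position within the span was a variable position in 70. The cluster with the most CpGs lay at chr22:32988022-32988165, where all 9 eligible positions of 144 bp were variable. The mean of its members was at most 3.30% in H05, H07 and L06 and 13% in L09, lay between 34.1 and 73.1% in 9 bulls, and reached 91.7 to 98.3% in L05, L03 and H04, with a median of 56.3% over 16 bulls. Its 36 pairs had r between 0.81 and 0.99. Over all 17 listed positions of the span the means were nearly the same, except that H05 rose from 0 to 13.3% and the other bulls moved less.

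A pair of other short clusters was also complete. At chr1:109079307-109079429, all 5 eligible positions of 123 bp were variable, and the mean was 0 to 15.6% in 8 of 16 bulls, 39.2 to 63.3% in L06, H05, H06 and H04, and 83.0 to 96.9% in L05, L08, L07 and H07. At chr24:44881584-44881899, all 5 eligible positions of 316 bp were variable, and the mean was at most 2.36% in H03, H05, H08 and L06, 38.2 to 67.6% in 7 bulls and 78.2 to 88.8% in 7. H03 and H08 were low at both clusters, whereas H01 and H02 were low on chromosome 1 (13.9 and 12%) and high on chromosome 24 (87.6 and 88.2%), and H05 was at 47.2% and at 0.

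In wider clusters only some positions varied. At chr13:19285822-19287227, 5 of the 8 eligible positions were variable. Their mean was at most 3.33% in H01, H03, H07 and L03, between 40.8 and 60.1% in H02, H04, H08, H09, L01 and L07, and between 95.9 and 100% in the other 8 bulls, whereas the mean over all 20 listed positions of the span lay between 33.3 and 100%. The clusters on chromosomes 28, 16 and 21 (7, 6 and 5 variable CpGs in 1590, 1548 and 1213 bp) had the same layout. Their spans held 12, 11 and 7 eligible positions. Their r was positive in every pair with at least 8 shared bulls, which on chromosome 21 left 9 pairs.

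Some neighbours moved in opposite directions. At chr20:70217926-70218058, 5 variable positions within 133 bp had r between -0.98 and 0.99, and 6 of the 10 pairs were negative. At chr3:22891851-22893160 15 of 28 pairs were negative (lowest r -0.76), and at chr29:1293330-1295039 4 of 10 (lowest r -0.83). A mean over such a cluster hides the spread, and at the cluster on chromosome 20 it lay between 25 and 75% in 15 of 17 bulls although its members had a mean SD of 38.7 points.

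Co-variation between variable positions was strong at short range and weakened with distance. Pearson r was computed over the bulls that listed both positions, at least 8, so that all pairs share the same 18 libraries, and pairs within a read length also share reads. The median size of r was 0.98 for 727 pairs at 2 to 50 bp, 0.94 for 897 pairs at 51 to 200 bp, 0.89 for 1303 pairs at 201 to 1000 bp and 0.82 for 9122 pairs at 1001 to 10000 bp. It was 0.55 for pairs up to 100000 bp, 0.41 up to 1000000 bp, and 0.25 for 21533 pairs on different chromosomes. The share of negative correlations grew from 17.1% at 2 to 50 bp through 29.4% at 1001 to 10000 bp to 49.8% between chromosomes. At 1001 to 10000 bp, 29.9% of pairs had r over 0.9 and 17.6% had r under -0.5.

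**Figure D4:**
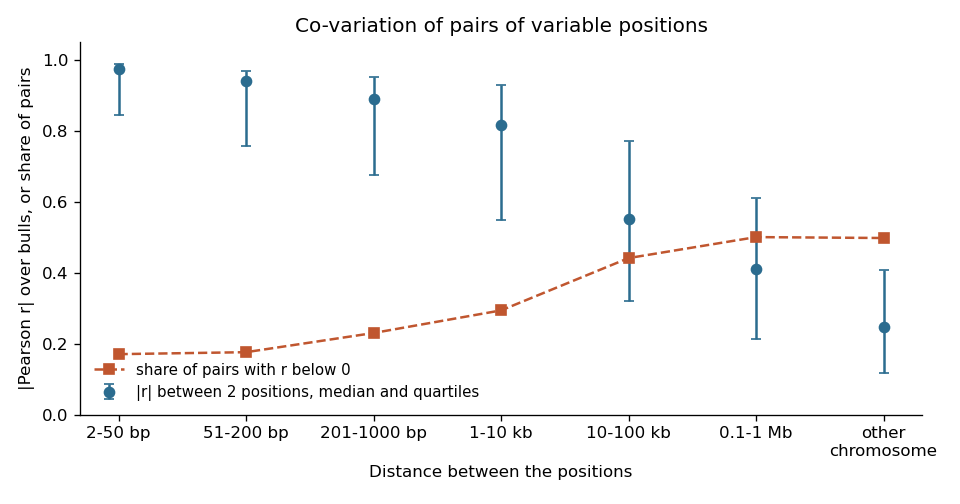
Size of Pearson r over bulls between 2 variable positions (circles, median with lower and upper quartiles) and share of pairs with r below 0 (squares), both on the y axis from 0 to 1, by the distance between the positions (x axis). The circles fall from 0.98 at 2 to 50 bp to 0.25 between chromosomes, while the share of negative pairs (17.1% at the shortest distance) comes to 49.8%.

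Along the genome the variable positions were spread over all autosomes. Chromosome 10 held the most per 1000 eligible positions (19.3, 1516 variable positions) and chromosome 27 the fewest (9.62, 699). Of 2528 windows of 1 Mb, 283 had none, the median had 8, and the 95th percentile was 33. The highest count was 73 of 2044 eligible positions at chr29:25000001-26000000, and the next was 67 of 1644 at chr18:9000001-10000000. The first 5 Mb, the last 5 Mb and the rest of the chromosomes had 13, 15.5 and 14.8 variable positions per 1000. Stretches with few listed positions held more of them per 1000 eligible positions. With the position itself counted, the number was 22.6 where 1 to 3 positions were listed within 200 bp and 20.1 at 4 to 7. It was 17 at 8 to 15 and 5.93 at 16 or more. No reference genome was used, so these classes are not CpG densities of the genome. Coverage moves with these numbers too, and its part was not tested.

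The study fine-mapped 25 genes for gestation length, and 21 of them, extended by 2000 bp on both sides, held an eligible position. Variable positions lay in 5 of these, 17 of 1247 eligible positions (1.36%, beside 1.47% over all autosomes). WWP2, a ubiquitin ligase, and LOC107131356 held 6 each, CDKL1, a kinase, and ARID4B, a subunit of a histone deacetylase complex, held 2 each, and MYH10, a non-muscle myosin heavy chain, held 1. ZNF613 had 29 eligible positions and no variable one. The genes around DGAT1 on chromosome 14 had few eligible positions, and 4 of them (DGAT1, BOP1, FBXL6 and SLC52A2) had none.

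Levels fell into groups at some of the gene positions and were spread along the scale at others. In MYH10, position 28690539 of chromosome 19 had 1, 5 and 6 of 12 bulls near 0, 50 and 100. In CDKL1, position 43308722 of chromosome 10 had 1, 3 and 3 of 12 bulls there. In ARID4B, position 8031582 of chromosome 28 (SD 38.7 points, 14 bulls) was at 0 in H01, H02, H03, H09, L03 and L04, at 20% in L02, 26.7% in L01, 36.4% in L05 and 41.2% in H07, and between 81.3 and 94.7% in L08, H05, H06 and L06. Its second variable position, 8102576 (12 bulls), had 4 bulls near 0, 5 near 50 and 1 near 100, with a median of 40%. High and low GL bulls overlapped at the first of them, where H03, H09, L03 and L05 were at 0, 0, 0 and 36.4% and H02, L01 and H05 at 0, 26.7 and 85.7%, L07 not being listed.

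In WWP2, positions 36950895 (14 bulls) and 36971828 (13 bulls) of chromosome 18 had medians of 50 and 52.4%, with 5 and 4 bulls near 0, 6 and 5 near 50 and 1 near 100 at each. The other 4 had medians between 76.4 and 100% and 1 or 2 bulls near 0. Position 36950895 lay in the 2000 bp beside the gene and the other 5 within it. The 6 positions of WWP2 spanned 60942 bp and had pairwise r between -0.63 and 0.96. In LOC107131356 the 6 positions spanned 87889 bp, had medians between 90 and 92.7%, 1 to 3 bulls near 0 each, and r between -0.67 and 0.99. H02 was at 0 at 4 of these 6, where it was listed at 5, and at 100% at the remaining one.

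The bulls also differed in how alike they were. For each of the 153 pairs of bulls, the share of shared variable positions was taken at which 1 bull lay at 10% or less and the other at 90% or more. H05 and L02 were at such opposite ends at 42 of 17800 shared variable positions (0.236%), while the other 152 pairs ranged from 6.17 to 13.8%, with a median over all pairs of 11%. Within 20 points of each other were 50.9% of the shared positions for H05 and L02, against a median of 35.1%. Their mean difference in size was 26 points, and the next lowest pair, H09 and L04, had 34.2 points. At the other eligible positions H05 and L02 did not stand apart, with a mean difference of 7.60 points within a range of 6.89 to 9.40 over all pairs. Without both bulls, 11591 positions met the rule in 12 or more of the other 16, and 76.7% of their values lay in the 3 bands. The labels do not give kinship, and the cause was not tested.

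**Figure D5:**
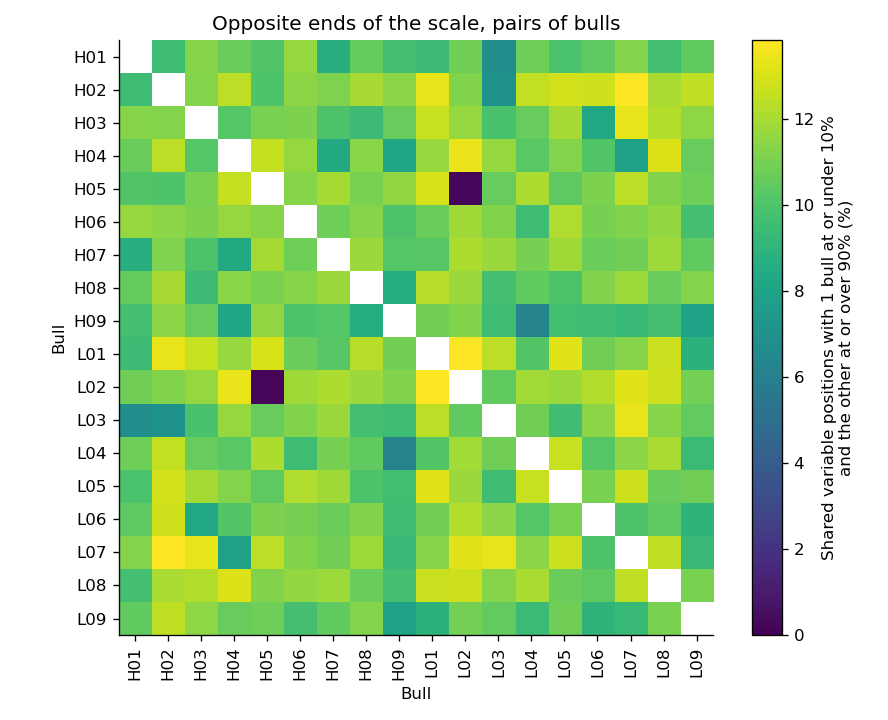
Share of shared variable positions (percent, color) at which 1 bull of a pair lay at 10% or less and the other at 90% or more, for each pair of the 18 bulls (both axes). The cell of H05 and L02 is at 0.236%, and the other 152 pairs lie between 6.17 and 13.8%.

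Trait groups were compared over positions listed in every bull of a comparison, with limma on the methylation level and Benjamini-Hochberg adjustment over all positions tested. Since the variable positions were chosen for their spread over bulls that include the compared ones, their shares are given as a description beside the share over all positions tested. For each position limma draws the spread between bulls towards that of all positions tested, which tends to lower p where a position spreads widely. The comparisons also share bulls.

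In the GL comparison (4 high and 4 low bulls) the groups did not overlap at 46 of 1776 variable positions (2.59%), 27 higher and 19 lower in high GL bulls, where the share was 2.01% over all 329377 positions tested. By limma 0 variable positions had an adjusted p under 0.05 (0% of all positions tested), and 166 had an unadjusted p under 0.05 (9.35%, beside 5% of all). The smallest adjusted p of a variable position by limma was 0.73 (0.0964 over all positions tested), at position 8864837 of chromosome 13, with 100, 90.9, 100 and 84.6% in H03, H09, L03 and L05 and 16.7, 26.9, 35.7 and 50% in H02, H05, L01 and L07. The groups did not overlap there and their means were 93.9 ± 7.52% and 32.3 ± 14.1% (SD, n = 4 each). Logistic regression with 10 reads set for each position, which ignores differences among the bulls of a group, called 201 variable positions (11.3%), beside 0.104% of all positions tested.

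The BDE comparison (3 high and 3 low bulls) had calls by limma on the methylation level over all positions and bulls, where the other 4 comparisons had 0. The groups did not overlap at 251 of 2089 variable positions (12%), where the share was 8.3% over all 327901 positions. Both positions called by limma among all tested (0.00061%) were variable positions, and 234 variable positions (11.2%) had an unadjusted p under 0.05, beside 6.1% of all. Position 101169104 of chromosome 8 was at 0 in H02, L03 and L08 and at 100% in H05, H09 and L02 (limma adjusted p = 0.0013). Position 45697502 of chromosome 24 was at 100% in H02, L03 and L08 and at 43.8, 40 and 40% in H05, H09 and L02 (limma adjusted p = 0.0418). On a log2 scale of methylated over unmethylated reads, with 10 reads set for each position, limma gave adjusted p = 0.00524 for the first and 0.0857 for the second, which was no longer called. The values within each group were almost equal at both, so the limma p-values there rest largely on the spread borrowed from the other positions tested.

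The low BDE group holds H05 and L02, the pair of bulls that were alike. Without H05 the groups did not overlap at 376 variable positions (18%, beside 16.1% of all positions tested), and without L02 at 374 (17.9%, beside 15.7%). By limma 0 positions were called without H05, without L02 or without L03, 1 without H09 and 2 without H02, all of them variable positions, and 5 without L08, of which 4 were variable positions. Logistic regression over all positions called 319 of the 2089 variable positions (15.3%), beside 0.161% of all positions tested.

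In the SCE, CCR and SCR comparisons (3 high and 3 low bulls each) limma called 0 variable positions (0% of all positions in each) at an adjusted p under 0.05, and 120, 258 and 101 (8.26%, 8.12% and 5.95%) had an unadjusted p under 0.05, beside 5.81%, 5.61% and 5.75% of all positions. The groups did not overlap at 125 of 1453 variable positions for SCE (8.60%, beside 8.44% of all), at 280 of 3178 for CCR (8.81%, beside 7.57%) and at 105 of 1697 for SCR (6.19%, beside 8.25%). The SCR share was below that of all positions, and the SCE share was close to it. Logistic regression called 141, 379 and 102 variable positions (9.70%, 11.9% and 6.01%), beside 0.0819%, 0.184% and 0.0576% of all positions. With 1 bull left out, limma called 2 positions for SCE without H01, and 4 without L08 and 2 without L09 for CCR, all of them variable positions.

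The variable positions with the smallest adjusted p in these comparisons were picked by a wide spread and a small p. Both favour groups that lie far apart, so the levels are given as a description. For SCE, position 65737267 of chromosome 20 was at 50, 54.5 and 58.3% in H03, H07 and L02 and at 0 in H01, H06 and L09 (limma adjusted p = 0.646). For CCR, position 71737562 of chromosome 5 was at 0 in H08, H09 and L06 and at 100, 100 and 85.7% in H06, L08 and L09 (limma adjusted p = 0.317). For SCR, position 108354620 of chromosome 1 was at 0, 8.33 and 0% in H01, H02 and H03 and at 100, 100 and 90% in L01, L02 and L03 (limma adjusted p = 0.528). The groups did not overlap at these 3 positions, and none of the differences passed the threshold of 0.05.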

How the data were processed

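Sperm DNA of 18 bulls was measured by whole-genome bisulfite sequencing. Per the submitters' processing notes and the study's methods, the authors checked reads with FastQC 0.11.2, trimmed them with Trim Galore 0.4.0, mapped them to UMD 3.1 with Bowtie2, extracted methylation with Bismark 0.14.5 and kept positions with at least 10 reads. The deposited files give the percent of methylated reads per position and strand, and for the 6 SCR bulls also the deposited counts of covering reads, between 10 and 100. The other bulls' percents have no depth, so no intervals of methylation levels were computed.

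Computations used Python 3.11.15, NumPy 2.4.6, SciPy 1.17.1, pandas 2.3.3, limma 3.58.1 (R 4.3.3) and matplotlib 3.10.9. SDs used all bulls that listed a position. Strand pairs were read from consecutive listed positions. Trait groups came from the labels, and H04 and L04 entered no trait comparison. The limma test was tested on simulated data. Named items were the 10 clusters with the most CpGs (ties by the higher mean SD, the measure of the rule), isolated CpGs with both strands variable in all bulls, the 3 positions on each side of the threshold, the variable position with the smallest adjusted p per trait, and fine-mapped genes, whose coordinates are those of the study's supplement. Only 1 isolated CpG met its rule, so the 8 single positions were chosen after seeing the values. The variable positions, lists and tests were chosen with earlier results of these data known. Each bull is 1 sample. The p-values of limma rest on the spread between bulls at a position together with a spread borrowed from all positions tested. Those of the logistic regression measure read sampling only.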

Additional observations from a re-analysis of the deposited data

Results flagged for a closer look

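Positions of the X chromosome are not part of the comparisons above. There 55 of 32291 positions listed in at least 12 bulls had an SD of at least 30 points. Before 130 Mb 18 of 26481 did (0.680 per 1000), with 26.9% of their values near 0, 4.95% near 50 and 38.5% near 100. Between 130 and 140 Mb 10 of 3923 did (2.55 per 1000), with 17.6% near 50. After 140 Mb 27 of 1887 did (14.3 per 1000), with 18.8% near 50. A bull has 1 X chromosome, and cattle have a region shared with the Y chromosome at one end of the X, and the part of either in these numbers was not tested. The cuts at 130 and 140 Mb were chosen after the values were seen.

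In the groups of 4 GL bulls, 2 single values stood far from the others of their group, among 14 groups of values examined. H09 had 74.7% of its values in the 3 bands, where the other high GL bulls had 76.6 to 77.0%. H05 had 22.4% of its values near 50, where the other low GL bulls had 20.5 to 20.8%. Chance gives such a value in about 1 of 20 groups.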

How the results depend on the processing

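The number of variable positions (27523) followed the threshold. It was 45197 at an SD of 25 points, 11553 at 35 points, 3931 with at least 15 bulls, 112 with all 18 bulls, and 46184 in the 12 bulls without listed coverage (at least 8 listed). It ranged from 16536 to 24516 with 1 bull left out and 12 of the other 17 required, which is a stricter rule, and fell by more than 1.5 times without H05 (18053), H06 (18340), H08 (16536), L01 (17930) and L06 (17340). Without both H05 and L02, chosen after seeing the data, it was 11591. The share of values in the 3 bands (76.4%) was 53.1% with bands of 5 points, 73.4% in all 18 bulls, 79.0% at an SD of 35 points, and 76.4 to 76.7% with 1 bull left out. A variable neighbour was found for 7.28% within 100 bp, 48.7% within 10000 bp and 12.9% at an SD of 35 points. Neighbours differing under 10 points came to 77.4% within 1000 bp and 81.8% without variable neighbours.

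With limma on positions with an SD of at least 5 points over the compared bulls, a spread that the group difference itself enlarges, 3, 11, 109, 5 and 22 variable positions were called for GL, SCE, BDE, CCR and SCR (0.169%, 0.763%, 5.26%, 0.158% and 1.31% of those tested), beside 9, 19, 251, 6 and 45 positions in all (0.00478%, 0.0118%, 0.135%, 0.00271% and 0.026%). Variable positions among all calls numbered, by logistic regression, 201 of 341, 141 of 226, 319 of 528, 379 of 698 and 102 of 179. Among all positions tested they numbered 1776 of 329377, 1453 of 276109, 2089 of 327901, 3178 of 380208 and 1697 of 310795. They were chosen for a wide spread over bulls that include the compared ones, so the counts of calls are a description. The log2 ratio gave 1 of 1 for BDE, 0 of 1 for GL and 0 of 0 for the others. With 1 bull left out the variable positions called were 0 for GL and SCR, 0 to 2 for SCE (2 without H01), 0 to 4 for BDE, and 0 to 4 for CCR (4 without L08, 2 without L09). The strand result stayed within the spread between bulls and coverage at the variable positions was lower in 6 of 6 bulls under each alternative run (-1 read for medians and -1.18 reads without positions above 30 reads), and the listing difference of -3.41 points was -1.94 points among positions listed in 12 to 17 bulls. No paired analysis was possible because replicate numbers do not pair bulls across groups. Depth is known for 6 bulls only.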

Other observations

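H04 and L04, which the labels put in no trait group, listed 77.9% and 83.1% of the variable positions. Of their values 20.8% and 22.3% lay near 0, 22.2% and 22.1% near 50, and 34.5% and 31.7% near 100, within the range of the other bulls. At the cluster on chromosome 22, H04 had the highest mean (98.3%) and L04 a mean of 35.9%.

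Strands that did not follow each other were rare. Among 3282 variable positions with the opposite strand listed in at least 6 bulls, the mean difference in size between strands had a median of 8.85 points, was at most 10 points at 2030 and exceeded 30 points at 4. At the 2 positions with a still opposite strand, the median level of that strand was 96.8%, and 79.2% of the values of the variable strand lay in the 3 bands.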
